A study of Mus musculus with 16 samples.

Results

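The cecal epithelium of mice colonized with Bifidobacterium longum alone (Bl) was set directly against that of mice colonized with Bacteroides thetaiotaomicron alone (Bt) on the GlycoGeneChip, a custom Affymetrix array of genes that make, degrade or bind glycans and of cytokines, growth factors and their receptors. The comparison rested on 4 of the 16 GeneChips of the series, the Bl GeneChips 9181 and 9182 and the Bt GeneChips 9177 and 9568, numbered as in their labels. Of 1813 probe sets on the array 708 belonged to mouse genes, 6 of these were control transcripts, and 451 of the other 702 were bright enough to be tested. They stood for 400 of 573 mouse genes, and the 251 dimmer probe sets were not tested.

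Adult male germ-free NMRI mice received a single gavage of B. longum NCC2705 or of B. thetaiotaomicron and were kept on a polysaccharide-rich chow for 10 d. A bi-associated state (Bt/Bl) and a germ-free state (GF), also with 2 GlycoGeneChips each, entered the same fit only to estimate the spread. Cecal epithelium was taken by laser capture microdissection, and each GeneChip carried double-amplified RNA pooled from 4 mice. For the other array of the study, the Mouse 430 2.0, the methods describe duplicate amplifications of 1 pool per state. The study calls the 2 GlycoGeneChips of a state duplicates, and whether they too were amplified from 1 pool is not given in the sources used here. The number of the Bt GeneChip 9568 lies outside the run of the other 7, from 9175 to 9182. On the Mouse 430 2.0 the Bt GeneChip 9443 likewise lies outside the run from 9128 to 9135. The labels give no date or batch, so a batch was not tested. The p-values therefore compare pools and measure only the spread between GeneChips, which may be technical. With 2 GeneChips a state the precision of every value is limited, and an exact permutation test of 2 against 2 cannot go below p = 0.333.

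B. thetaiotaomicron is a gram-negative symbiont that breaks down plant and host glycans, and B. longum is a gram-positive bacterium that ferments oligosaccharides and is used as a probiotic. Epithelial cells of the gut secrete mucins and lectins toward the lumen, and C-type lectins of the Reg family are among their antibacterial proteins. The sugars of mucins and membrane glycoproteins are added by glycosyltransferases from activated donors, the nucleotide sugars, and sialic acid often caps the chains.

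Among the 451 probe sets 7 passed an adjusted p of 0.05 (1.55%), 2 higher (0.443%) and 5 lower (1.11%) in Bl than in Bt, and they represented 6 genes. On the level of genes, each by its brightest probe set, 5 of 400 passed (1.25%). Both probe sets of Reg3b, which encodes an antibacterial C-type lectin of the gut also known as pancreatitis-associated protein, were lower in Bl and had the 2 largest fold changes. Gne, Bmp6 and 1 of 2 probe sets of Dcn were lower as well, while Ccr1l1 and Fgfr4 were higher. The same fit on 457 probe sets for human genes on the same GeneChips passed 7 (1.53%, 5 higher, 1.09%, and 2 lower, 0.438%), a share close to that of the mouse probe sets. With quantile normalization 4 mouse probe sets were higher and 5 were lower. The study's looser rule for this array asks for a lower 90% bound above 1.2-fold in rises over GF, together with a present call. Used here without such calls and in both directions between Bl and Bt, that bound left 28 probe sets higher (6.21%) and 25 lower (5.54%) in Bl. In 5 of the 7 called probe sets both GeneChips of the dimmer state lay under the floor of 268.1, the 25th percentile of all signals, to which lower values were raised. Their folds are therefore given as at least the fold over that floor. The 2 raised signals were equal, so their own spread did not enter the standard error or the p-value. The filter on dim signals asked for both GeneChips of at least 1 state above the median of 860.3. Through Bl alone 38 probe sets passed it and through Bt alone 29, so these were selected for high signals in 1 of the states compared. Among them were 4 of the 7 called, Ccr1l1 and Fgfr4 (Bl alone) and Bmp6 and Dcn (Bt alone). Those not called included Il2ra, Il1b, Tnfsf4, Siglec1, Icam2, Bmp2, Mgat2 and 1 probe set of Lum (Bl alone). They also included St8sia5, Cxcl9, Psmb3 and both probe sets of St6galnac1 (Bt alone). All 7 human probe sets called passed the filter through 1 state alone, the 5 higher through Bl and the 2 lower through Bt.

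**Figure D1:**
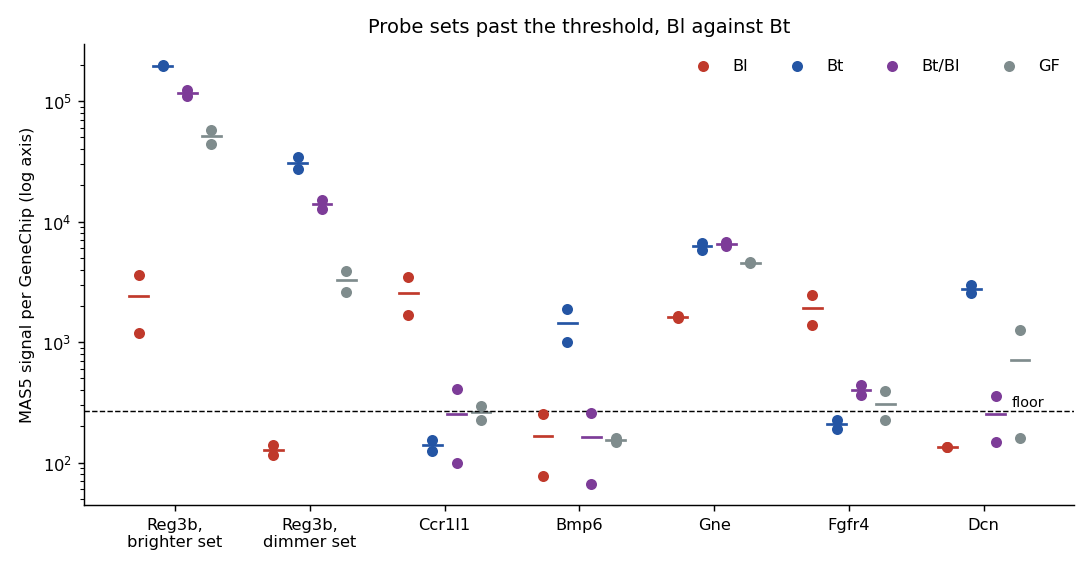
MAS5 signal (log axis) of the 7 probe sets past the threshold on each GeneChip, in the order Bl, Bt, Bt/Bl and GF. Points are GeneChips, short lines are means of 2, and the dashed line is the floor of 268.1. Both Bl points lie apart from both Bt points in every probe set, and both Bl points of Reg3b lie below the points of all other states.

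Reg3b had the largest fold change of all genes tested. Its neighbors Reg2 and Reg1 lie on the same chromosome, encode related lectins and were also on the array, so the promoters of all 3 genes are shown before their values, from RefSeq on build GRCm38.p6, from 250 bases before to 50 bases after the start of transcription. Capitals mark TATAAA and TTCNNNGAA, the palindrome that STAT factors can bind, searched on both strands. Reg3b is at chr6:78370635-78370934, Reg2 at chr6:78404905-78405204 and Reg1 at chr6:78425733-78426032, all on the plus strand.
Reg3b: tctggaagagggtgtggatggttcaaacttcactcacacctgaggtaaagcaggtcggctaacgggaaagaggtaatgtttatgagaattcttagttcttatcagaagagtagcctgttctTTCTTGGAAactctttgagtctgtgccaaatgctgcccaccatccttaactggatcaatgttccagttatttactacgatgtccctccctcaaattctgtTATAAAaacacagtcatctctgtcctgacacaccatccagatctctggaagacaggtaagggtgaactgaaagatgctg
Reg2: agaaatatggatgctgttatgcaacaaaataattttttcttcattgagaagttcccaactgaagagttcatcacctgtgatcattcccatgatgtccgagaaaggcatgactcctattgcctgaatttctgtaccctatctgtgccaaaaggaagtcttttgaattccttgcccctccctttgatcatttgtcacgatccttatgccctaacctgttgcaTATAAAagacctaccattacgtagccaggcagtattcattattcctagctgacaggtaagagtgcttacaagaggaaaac
Reg1: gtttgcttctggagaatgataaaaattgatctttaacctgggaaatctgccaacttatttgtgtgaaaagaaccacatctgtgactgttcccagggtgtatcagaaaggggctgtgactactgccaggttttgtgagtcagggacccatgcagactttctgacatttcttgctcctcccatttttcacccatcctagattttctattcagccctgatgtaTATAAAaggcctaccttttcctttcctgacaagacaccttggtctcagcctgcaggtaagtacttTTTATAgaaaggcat
Each of the 3 promoters held TATAAA, which starts 29 bases before the start of transcription in Reg3b and 30 bases before it in Reg2 and Reg1, and Reg1 held it once more on the minus strand, written there as TTTATA. Of 32851 mouse promoters of this length 13.6% hold TATAAA. TTCNNNGAA was found in Reg3b alone among the 3, 129 bases before the start of transcription, and 8.3% of all promoters hold it. A match is a description of letters and not of binding.

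The brighter probe set of Reg3b, on chromosome 6, had signals of 3599 and 1194 in Bl, against 194932 and 199690 in Bt. Its signals were 110988 and 123018 in Bt/Bl and 44347 and 57740 in GF. The Bl signals were thus the 2 lowest and the Bt signals the 2 highest of the 8 GeneChips. Reg3b averaged 2397 ± 1700 in Bl and 197311 ± 3364 in Bt (SD, n = 2 each), 95.2-fold lower in Bl, with a log2 fold change of -6.57 ± 0.28 (SE) and an adjusted p of 7.63e-25 by limma. The dimmer probe set of Reg3b had signals of 139 and 115 in Bl, both under the floor, and of 34227 and 27249 in Bt. Its level was at least 114.0-fold lower in Bl (log2 -6.83 ± 0.45, SE, adjusted p = 2.25e-17). By its suffix the brighter probe set can share probes with related transcripts, and both gave the same direction. The log2 fold change of the brighter probe set was -7.37 without the Bl GeneChip 9181 and -5.78 without 9182. Both passed in all 20 alternative settings that tested them. In bulk RNA fewer cells of a type and less RNA per cell cannot be told apart.

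Reg2 and Reg1, which encode lectins of the same family best known from the exocrine pancreas, did not pass the test. Reg2 had signals of 2399 and 2082 in Bl, against 3617 and 2780 in Bt, which is -0.51 on the log2 scale (adjusted p = 0.8792). Reg1 had signals of 168 and 611 in Bl, against 430 and 835 in Bt, and its GeneChips overlapped (log2 -0.57, adjusted p = 0.8894). The other probe set of Reg2 overlapped as well. Of the 7 Reg genes listed 3 were measured, and 1 of them was called, beside 1.25% of all genes tested.

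On the Mouse 430 2.0, where 11 of 24865 probe sets passed in the same comparison (0.0442%, 2 higher, 0.00804%, and 9 lower, 0.0362%), Reg3b fell as well. Its brightest probe set there had signals of 3803 and 4930 in Bl, against 405724 and 362467 in Bt, a log2 fold change of -6.47 ± 0.23 (SE, adjusted p = 3.52e-10). A second one gave -5.80 (adjusted p = 2.11e-09). Of the 291 genes tested on both types of array Reg3b was the only one called on the Mouse 430 2.0 (0.344%). Reg1 and Reg2 had log2 fold changes of 0.72 and 0.28 there, with adjusted p of 0.8135 and 0.9302.

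Gne encodes the bifunctional enzyme that begins the synthesis of sialic acid from UDP-GlcNAc. Gne, on chromosome 4, had signals of 1577 and 1659 in Bl, against 6701 and 5808 in Bt, and of 6334 and 6775 in Bt/Bl and 4510 and 4641 in GF. Both Bl GeneChips were below the other 6. The mean was 1618 ± 58 in Bl and 6254 ± 632 in Bt (SD, n = 2 each), 3.86-fold lower in Bl, with a log2 fold change of -1.95 ± 0.46 (SE) and an adjusted p of 0.0099. Without the Bt GeneChip 9177 or 9568 the adjusted p was 0.2044 or 0.1084. The 2 probe sets for Gne on the Mouse 430 2.0 did not show this difference. The brighter had signals of 5179 and 3919 in Bl, against 4281 and 3864 in Bt (log2 0.15, 95% interval from -0.51 to 0.81), and the other had a log2 fold change of 0.07. That interval does not reach the value of the GlycoGeneChip.

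The later steps toward activated sialic acid were also on the array. Nans, the synthase that follows Gne, had signals of 5620 and 6470 in Bl, against 6646 and 5415 in Bt, which overlapped (log2 0.01, adjusted p = 0.9963). Cmas, which makes CMP-sialic acid, had 6070 and 4575 in Bl and 11921 and 6708 in Bt. Both Bl signals of Cmas were the lower ones, but at -0.76 on the log2 scale Cmas missed the threshold (adjusted p = 0.3052), and on the Mouse 430 2.0 it was 0.15. Nans, Cmas, Uap1, St3gal1, St8sia2, St6galnac2, Tnfsf4, Psmc1, Cxcl1 and Tnfrsf1a were chosen after their values were seen.

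Nucleotide sugar synthesis had 23 tested genes, of which 1, Gne, was lower by the adjusted p and 22 did not pass, beside 1.25% called of all genes. At an unadjusted p under 0.05, 4 were lower and none was higher, beside 6.75% of all 400 genes in each direction. The median log2 fold change was -0.16, against -0.03 over all 400 genes. Of the medians of the 25 lists 15 changed sign when 1 GeneChip was left out, that of nucleotide sugar synthesis among them (0.019 without the Bl GeneChip 9181). Both Bl signals were below both Bt signals in 5 of the 23 and above them in 3, beside 22.2% and 21.0% of all genes. Ugdh, which makes UDP-glucuronic acid, was the brightest of the list, with 91934 and 102769 in Bl, against 144210 and 168130 in Bt (log2 -0.68, adjusted p = 0.1812), but 0.30 on the log2 scale with quantile normalization. Its other probe set gave -0.67. Uap1, which makes UDP-GlcNAc, had 7627 and 9732 in Bl, against 14583 and 15217 in Bt (log2 -0.79, adjusted p = 0.1812). The Bl and Bt signals of Ugdh and Uap1 did not overlap. Fpgt, which makes GDP-fucose by salvage, lay on the other side with 1418 and 1082 in Bl, against 270 and 298 in Bt (log2 2.13, adjusted p = 0.5181), and Gmds, of the main route to GDP-fucose, gave 1.03 on the log2 scale (adjusted p = 0.7180).

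These differences stood beside one of brightness. Over the 65 mouse probe sets that exceeded 4 times the median signal on all 8 GeneChips, the median log2 signal was 13.09 and 13.06 in Bl, against 13.32 and 13.25 in Bt. Quantile normalization, which makes the GeneChips alike in distribution, moved the median log2 fold change of all probe sets tested to 0.06, beside -0.07 without it. Among the 104 tested probe sets whose mean exceeded 4 times the median, 72 were lower and 32 were higher in Bl (69.2% lower, median log2 fold change -0.24). Among the 211 with a mean of up to 2 times the median 93 were lower (44.1%) and the median was 0.20. The part of this shift in the values of bright genes was not tested.

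**Figure D2:**
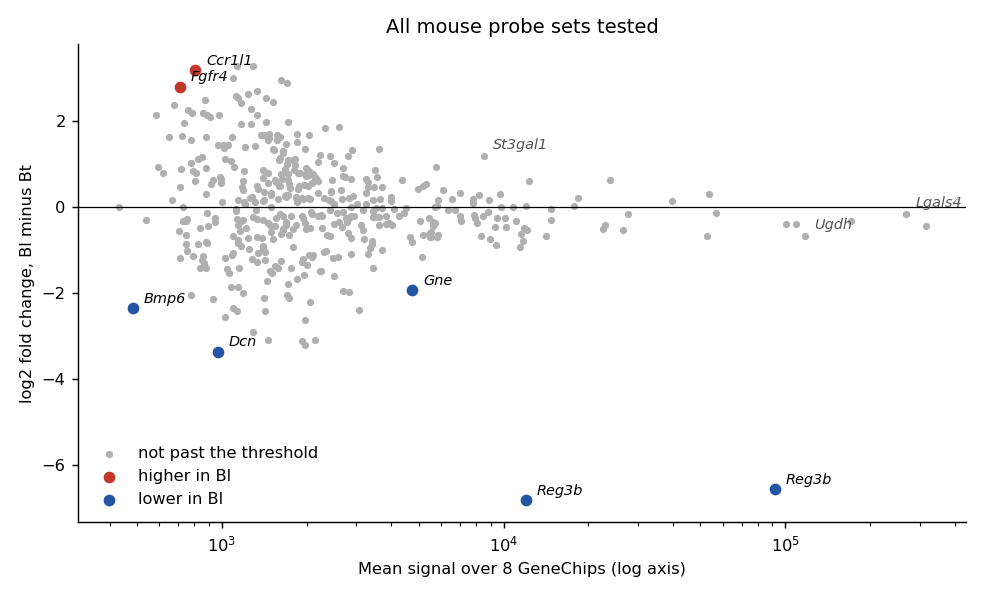
Log2 fold change, Bl minus Bt, against the mean signal over the 8 GeneChips (log axis) for the 451 mouse probe sets tested. Red and blue points passed the threshold (2 higher and 5 lower in Bl) and grey points did not. Dim probe sets scatter widely to both sides, and of the 104 brightest 69.2% lie below 0.

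**Figure D3:**
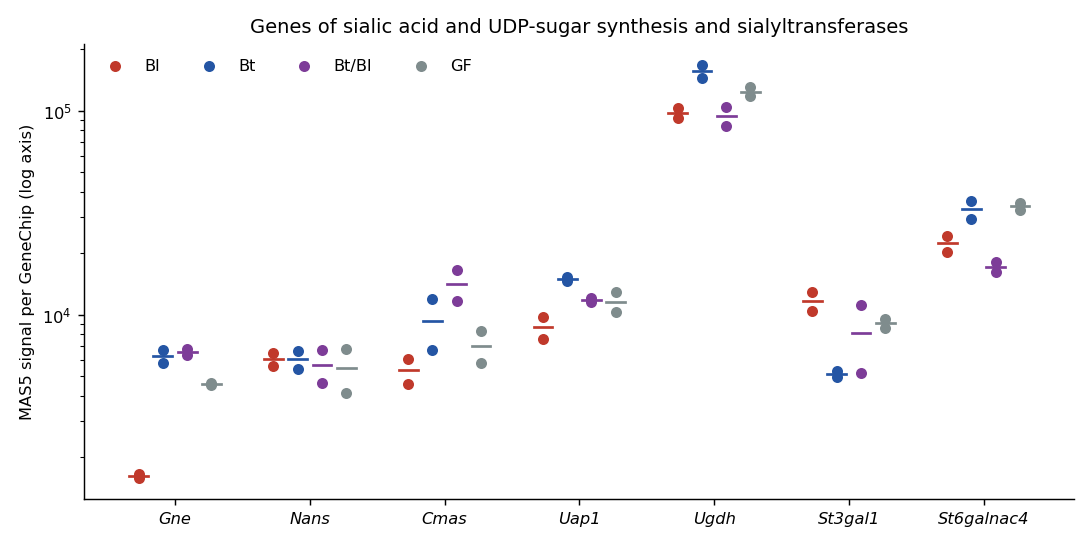
MAS5 signal (log axis) of genes of sialic acid and UDP-sugar synthesis and of 2 sialyltransferases on each GeneChip, in the order Bl, Bt, Bt/Bl and GF, with means of 2 as short lines. Only Gne passed the threshold. Its Bl signals of 1577 and 1659 lie below those of the other 6 GeneChips, whereas the signals of Nans overlap.

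Sialyltransferases, which attach sialic acid to glycan chains, had 12 tested genes and no call by the adjusted p. Their median log2 fold change was -0.78, against -0.03 over all genes, but -0.43 without the Bl GeneChip 9181. Among the bright probe sets only St6galnac4, St6galnac6 and St3gal1 remained, and the median there was the value of St6galnac6, 0.01. At an unadjusted p under 0.05, 3 were lower and 1 was higher, beside 6.75% of all genes in each direction. Of the 3, St8sia5 entered the test only through Bt. Both Bl signals were below both Bt signals in 5 and above them in 1, beside 22.2% and 21.0% of all genes. St6galnac4, the brightest, had 20287 and 24433 in Bl, against 29479 and 36212 in Bt (log2 -0.55, adjusted p = 0.3052). St6galnac1, which makes sialyl-Tn on mucin-type chains, had 387 and 3213 in Bl, against 4852 and 3895 in Bt (log2 -1.96, adjusted p = 0.5002). Its other probe set had 496 and 66 in Bl and 2433 and 3156 in Bt. The Bl GeneChips of St6galnac1 differed widely from each other in both probe sets.

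St8sia5, which acts on gangliosides, had 361 and 224 in Bl, against 967 and 2853 in Bt (log2 -2.42, adjusted p = 0.3052). St8sia2, which extends polysialic acid, and St6galnac2 had log2 fold changes of -1.16 and -1.0, with adjusted p of 0.3312 and 0.4011. St3gal1, which adds sialic acid to core galactose of O-glycans, was the 1 member with both Bl signals above both Bt signals. St3gal1 had 10384 and 12878 in Bl, against 5294 and 4972 in Bt, 2.25-fold (log2 1.17 ± 0.34, SE), with an adjusted p of 0.0664, and with quantile normalization 0.0102. On the Mouse 430 2.0 St3gal1 had 4052 and 2433 in Bl, against 1418 and 1268 in Bt, which gave 1.23 on the log2 scale and missed the threshold too (adjusted p = 0.3420). St6galnac6, which makes disialylated gangliosides and is named in the study for this array, overlapped, with 9798 and 15905 in Bl and 10230 and 15102 in Bt in its brighter probe set (log2 0.01). The other probe set of St6galnac6 overlapped too (log2 0.06).

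Enzymes that build the chains showed no call. Of 18 tested genes of N-glycan branching and extension 5 had both Bl signals below and 2 above both Bt signals, beside 22.2% and 21.0% of all genes. Their median log2 fold change was -0.36. Mgat1, which opens the path to complex N-glycans and is the brightest of them, had 6560 and 7432 in Bl, against 8713 and 9610 in Bt (log2 -0.39, adjusted p = 0.6710). B4galt3, a galactosyltransferase named in the study for this array, had 3430 and 1146 in Bl, against 4600 and 3936 in Bt (log2 -1.10, adjusted p = 0.7082). Mgat4a, also named there, had 2346 and 3019 in Bl and 4619 and 2804 in Bt, which overlapped. Of these genes B3galnt1, best known for globoside synthesis, had the lowest value, -2.43, and Mgat2 the highest, 1.92, with adjusted p of 0.3783 and 0.5503.

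The 8 tested genes of the dolichol pathway and the oligosaccharyltransferase, which transfers the N-glycan precursor to proteins, had a median of 0.07 and no call. Rpn1, a subunit of that transferase and the brightest of them, had 4008 and 11038 in Bl, against 12689 and 13028 in Bt (log2 -0.95, adjusted p = 0.1810). The 2 Bl GeneChips of Rpn1 differed more from each other than the higher one did from Bt, and without GeneChip 9182 the adjusted p was 6.12e-04. On the Mouse 430 2.0 the brightest of 5 probe sets for Rpn1 gave -0.53 (adjusted p = 0.4765).

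Fucosyltransferases (9 tested), genes of O-glycan initiation and cores (6) and mucins (4) had medians of 0.21, 0.26 and 0.14 and no call. Gcnt3, which makes branched mucin cores, had 2362 and 2345 in Bl, against 945 and 447 in Bt, in its dimmer probe set (log2 1.86, adjusted p = 0.3052). Its brighter probe set overlapped, with 9793 and 12425 in Bl and 6686 and 12042 in Bt. Fut2, which places the terminal fucose of gut glycans, also overlapped, with 2299 and 5010 in Bl and 1144 and 2464 in Bt. Muc3, a membrane mucin of enterocytes, had 9505 and 15617 in Bl and 10658 and 15131 in Bt, and overlapped too, with a log2 fold change of -0.06 and of 0.21 with quantile normalization.

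Galectins, which bind galactosides, had 3 tested genes and no call. Lgals4, the main galectin of the intestinal epithelium, gave the highest signal of them, 260250 and 271350 in Bl and 289894 and 308868 in Bt (log2 -0.17, adjusted p = 0.8662), but 0.14 with quantile normalization, and its dimmer probe set gave 0.14. Lysosomal glycosidases and sulfatases, which take glycans apart, had 20 tested genes, no call and a median of -0.33. Both Bl signals were below both Bt signals in 9 of them and above in 2, beside 22.2% and 21.0% of all genes. Galc, which removes galactose from galactolipids, had the lowest value, with 494 and 220 in Bl, against 2217 and 2132 in Bt (log2 -2.58, adjusted p = 0.3052). Arsb and Manba had the highest, 1.82 and 1.6, with adjusted p of 0.4011 and 0.6462. Smpd1, the acid sphingomyelinase and the brightest of the list, overlapped, with 17928 and 10398 in Bl and 18718 and 15530 in Bt.

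Sulfotransferases (9 tested), glycosaminoglycan chain synthesis (7) and glycolipid and GPI anchor synthesis (7) held no call. Chst4, which sulfates GlcNAc, had 2191 and 586 in Bl, against 4242 and 4818 in Bt (log2 -2.00, adjusted p = 0.2422). Pigq, of the first step of GPI anchor synthesis, had 1006 and 576 in Bl, against 5840 and 2753 in Bt, 5.27-fold lower, and fell short of the threshold (log2 -2.40, adjusted p = 0.0664). Pigp, a partner of Pigq in that step, had 5379 and 4599 in Bl and 8336 and 7965 in Bt (log2 -0.71, adjusted p = 0.5002). Piga, the catalytic subunit, lay on the other side, with 3584 and 3462 in Bl and 2300 and 2199 in Bt (log2 0.65, adjusted p = 0.6900), and its other probe set overlapped (log2 -1.05). On the Mouse 430 2.0 the brightest of 6 probe sets for Pigq gave -0.22, and their values ran to both sides.

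Growth factors and their receptors had 26 tested genes and 1 call by the brightest probe set, beside 1.25% of all genes. It was Fgfr4, a receptor for fibroblast growth factors. That list does not hold Bmp6, a called growth factor that is described after Fgfr4. Fgfr4, on chromosome 13, had 1399 and 2440 in Bl, against 227 and 189 in Bt, both under the floor. The other 4 GeneChips lay between 224 and 442. Fgfr4 was at least 6.89-fold higher in Bl (log2 2.79 ± 0.68, SE, adjusted p = 0.0112), and it passed in 8 of 19 alternative settings. Fgfr4 entered the test only through the 2 Bl GeneChips. With no filter its adjusted p was 0.1803, and with the floor at the median its log2 fold change was 1.10 (adjusted p = 0.1419). With no floor Fgfr4 did not pass either (log2 3.16, adjusted p = 0.2748). Without the Bt GeneChip 9177 or 9568 the adjusted p was 0.1700 or 0.0970, without the Bt/Bl GeneChip 9179 or 9180 it was 0.0955 or 0.0836, and without the GF GeneChip 9176 it was 0.0645. On the Mouse 430 2.0 its 2 probe sets pointed in opposite directions, with log2 fold changes of 2.53 and -2.26 and adjusted p of 0.3666 and 0.3711.

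Bmp6, a bone morphogenetic protein on chromosome 13, had 255 and 78 in Bl, both under the floor, against 1005 and 1891 in Bt. It was dim in Bt/Bl (260 and 66) and in GF (149 and 159) as well, so the 2 Bt GeneChips were the ones that stood apart. Bmp6 was at least 5.14-fold lower in Bl (log2 -2.36 ± 0.50, SE, adjusted p = 0.0026), and without the Bt/Bl GeneChip 9179 or 9180 the adjusted p was 0.0955 or 0.0705. Bmp6 entered the test only through those Bt GeneChips. With no filter its adjusted p was 0.0998, and with the floor at the median its log2 fold change was -0.68 (adjusted p = 0.3064). Bmp4 had 350 and 158 in Bl, against 1987 and 3512 in Bt, and did not pass (log2 -3.11, adjusted p = 0.1615). Bmp4 had 3561 and 2373 in Bt/Bl and 2318 and 2844 in GF, so for this gene the 2 Bl GeneChips stood apart. Bmp2 lay on the other side, with 950 and 1531 in Bl, against 194 and 132 in Bt (log2 2.17, adjusted p = 0.3052). Bmp8b did so too, with 2258 and 2441 in Bl, against 326 and 311 in Bt (log2 2.88, adjusted p = 0.3052). Bmp2, unlike Bmp8b, entered the test only through Bl.

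Ccr1l1, a chemokine receptor-like gene related to Ccr1 on chromosome 9, had 3464 and 1674 in Bl, against 124 and 154 in Bt, both under the floor. It had 99 and 409 in Bt/Bl and 228 and 296 in GF, so that the 2 Bl GeneChips were above the other 6. Ccr1l1 was at least 8.98-fold higher in Bl (log2 3.17 ± 0.66, SE, adjusted p = 0.0026). Without the Bt GeneChip 9177 or 9568 the adjusted p was 0.1138 or 0.0658, and without the Bt/Bl GeneChip 9179 it was 0.0763. Ccr1l1 entered the test only through Bl. It had an adjusted p of 0.1559 with no filter, and a log2 fold change of 1.49 with the floor at the median (adjusted p = 0.1419). Neither Ccr1l1 nor Bmp6 was tested on the Mouse 430 2.0. The list of cytokine and chemokine receptors does not hold Ccr1l1. Of its 25 tested genes none was called, and at an unadjusted p under 0.05, 4 were higher and 1 was lower, beside 6.75% of all genes in each direction. Of the 4, Il2ra and Ccr2 entered the test only through Bl.

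Il2ra, the high-affinity subunit of the interleukin-2 receptor, had the highest value of all probe sets tested, with 3463 and 2322 in Bl, against 152 and 320 in Bt (log2 3.28, adjusted p = 0.1250). Ccr9, the receptor of gut-homing lymphocytes, had 3429 and 1338 in Bl, against 253 and 161 in Bt (log2 3.0, adjusted p = 0.1812). Fasl, which triggers cell death through Fas, had 4035 and 1897 in Bl, against 476 and 220 in Bt (log2 2.95, adjusted p = 0.2787). None of these passed the test, and Il2ra entered it only through Bl. Ifngr1, which binds interferon-gamma and is named in the study for this array, had 74403 and 101947 in Bl, against 107925 and 121989 in Bt (log2 -0.40, adjusted p = 0.5554), but 0.31 with quantile normalization, and its other probe set overlapped (log2 0.08). Tnfrsf1a, a TNF receptor, had 5950 and 5939 in Bl, against 9063 and 10056 in Bt (log2 -0.68, adjusted p = 0.3405).

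Cytokines (15 tested) and chemokines (21 tested) held no call, with medians of 0.15 and 0.56. Without the Bt GeneChip 9177 these were -0.42 and 0.09, and with the filter at the 75th percentile that of chemokines was -0.20. Among cytokines 4 were higher and none was lower at an unadjusted p under 0.05, beside 6.75% of all genes in each direction. Of the 4, Il1b and Il17b entered the test only through Bl, so the filter selected them for high Bl signals. Il1b, an inflammatory cytokine, had 3098 and 2007 in Bl, against 662 and 253 in Bt (log2 2.57, adjusted p = 0.3052). Il7, an epithelial growth factor for lymphocytes, had 1773 and 2212 in Bl, against 291 and 355 in Bt (log2 2.62, adjusted p = 0.3052). Csf1, the macrophage growth factor, went both ways. Its brighter probe set had 10841 and 5220 in Bl and 3426 and 4560 in Bt (log2 0.93, adjusted p = 0.3052). Its dimmer one had 170 and 251 in Bl and 1760 and 3553 in Bt (log2 -3.22, adjusted p = 0.1810). Cxcl9, a chemokine induced by interferon-gamma, had 204 and 601 in Bl, against 2266 and 1241 in Bt (log2 -2.06, adjusted p = 0.2799). Cxcl1, which draws neutrophils, had 934 and 811 in Bl, against 1994 and 3068 in Bt (log2 -1.51, adjusted p = 0.5002).

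Tnfsf4, the ligand of OX40, had 1952 and 986 in Bl, against 121 and 169 in Bt (log2 2.37, adjusted p = 0.1250). Psmc1, a proteasome subunit, had 5097 and 6424 in Bl, against 12130 and 9434 in Bt (log2 -0.90, adjusted p = 0.1810), and Psmb3, another, had 422 and 271 in Bl, against 2262 and 3691 in Bt (log2 -3.10, adjusted p = 0.2422). Rpl39l, a ribosomal protein-like gene, had 4161 and 1597 in Bl, against 97 and 148 in Bt (log2 3.27, adjusted p = 0.1812). None of these 4 passed the test. Tnfsf4 entered it only through Bl and Psmb3 only through Bt. Siglecs, which bind sialic acid on leukocytes, had 5 tested genes, no call and a median of 0.45. Siglec1 of macrophages had 870 and 1762 in Bl and 300 and 134 in Bt (log2 2.13, adjusted p = 0.0978). Siglec1 entered the test only through Bl, and the other Siglecs ran from -0.29 (Mag) to 0.72 (Siglecf). C-type lectins other than Reg had 21 tested genes and no call, with a median of 0.67 that was -0.08 without the Bt GeneChip 9177 and 1.07 without the Bl GeneChip 9181. Clec4f, a Kupffer cell lectin, had 2220 and 588 in Bl, against 181 and 187 in Bt (log2 2.09, adjusted p = 0.3052), and Cd209b had 372 and 900 in Bl, against 2170 and 3363 in Bt (log2 -2.22, adjusted p = 0.3597).

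Dcn encodes decorin, a proteoglycan of fibroblast matrix. Its called probe set, on chromosome 10, had 134 and 136 in Bl, both under the floor, against 2995 and 2570 in Bt. It was at least 10.3-fold lower in Bl (log2 -3.37 ± 0.87, SE, adjusted p = 0.0207), and it passed in 6 of 20 alternative settings. This probe set entered the test only through Bt. With no filter its adjusted p was 0.4163, and with the floor at the median its log2 fold change was -1.69 (adjusted p = 0.1419). With no floor it did not pass either (log2 -4.36, adjusted p = 0.0635). Without either Bl, Bt or Bt/Bl GeneChip or the GF GeneChip 9176 the adjusted p ran between 0.0688 and 0.2220. The other probe set for Dcn had 156 and 2536 in Bl, against 2700 and 2265 in Bt, which overlapped (log2 -1.59). On the Mouse 430 2.0 Dcn had 1320 and 938 in Bl, against 993 and 181 in Bt (log2 1.39, adjusted p = 0.6042). The 3 probe sets of Dcn thus did not give 1 direction.

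Of 14 tested proteoglycan cores none was called by its brightest probe set. Vcan, Lum and Bgn, matrix proteoglycans as Dcn is, had log2 fold changes of -1.68, -1.16 and 2.12, with adjusted p of 0.5659, 0.6472 and 0.3052. The other probe set of Lum gave 1.39. Bcan and Gpc6 had 2.69 and 2.53, with adjusted p of 0.3052 and 0.3528. The 11 tested markers of stroma and vessels, of 14 measured and 26 listed, summed to 20033 and 16256 in Bl, against 16848 and 16245 in Bt, with a median log2 fold change of 0.47. Their part in the value of Dcn was not tested.

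Epithelial markers were only partly covered by the array, and Sdc1 was too dim to be tested (203 and 1689 in Bl, 1338 and 653 in Bt). The 3 tested epithelial markers, of 4 measured and 17 listed, were Lgals4, Muc3 and Fut2, and they summed to 272053 and 291977 in Bl, against 301696 and 326464 in Bt. Most of this was Lgals4, with a mean signal of 269127, beside 14786 for Muc3 and 2512 for Fut2. Leukocyte markers, with 16 tested of 22 measured and 39 listed, summed to 21536 and 25760 in Bl, against 26547 and 20022 in Bt, and these overlapped. Adhesion molecules had 15 tested genes and no call. Cd34, of vessels and progenitors, had 244 and 635 in Bl and 4318 and 2997 in Bt (log2 -3.12, adjusted p = 0.2422). Icam2, of endothelium and leukocytes, had 1818 and 1729 in Bl and 224 and 374 in Bt (log2 2.49, adjusted p = 0.2422). Icam2 entered the test only through Bl. The part of other cell types in the immune and adhesion genes was not tested.

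**Figure D4:**
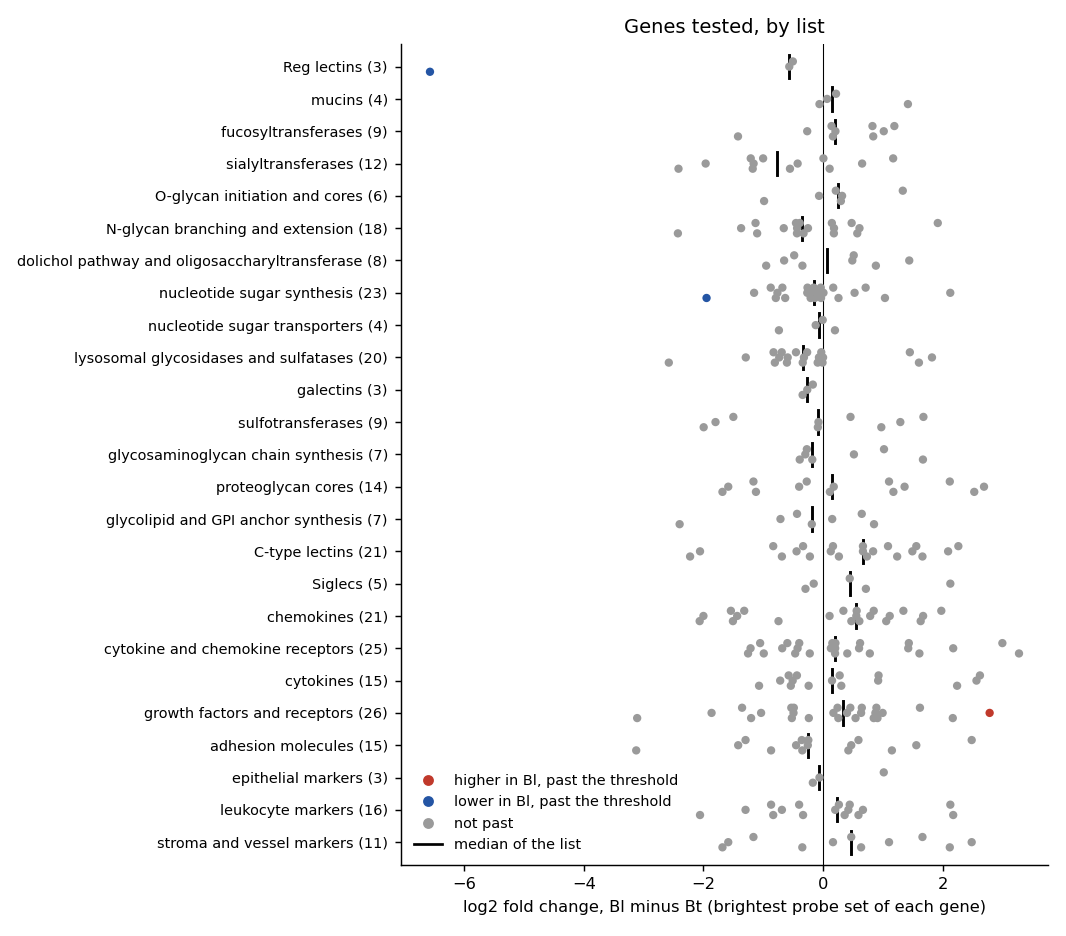
Log2 fold change, Bl minus Bt, of each tested gene by its brightest probe set, grouped by list, with the number tested in parentheses. Black bars are medians, and red and blue points passed the threshold over all probe sets. The 3 colored points are Reg3b and Gne, which were lower, and Fgfr4, which was higher in Bl. Of the 25 medians 15 changed sign when 1 GeneChip was left out.

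The GeneChips themselves were noisy at low signal. The correlation of log2 signals over 702 probe sets was 0.682 between the Bl GeneChips and 0.728 between the Bt GeneChips, and it was 0.648 to 0.687 between Bl and Bt. Over the 65 bright probe sets these values were 0.919, 0.955 and 0.924 to 0.948. The median standard error of the log2 fold change was 1.18 for probe sets with a mean of up to 2 times the median and 0.37 for those above 4 times. Dim probe sets therefore needed a much larger fold to pass. The ratio of 3' to 5' signal for Gapdh was 7.4 and 12.9 in Bl, against 9.9 and 11.8 in Bt, and for Actb it was 18.3 and 21.0 in Bl, against 19.0 and 32.8 in Bt. Of 50 genes with several tested probe sets, 27 had log2 fold changes of 1 sign and 23 of both signs.

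Across the 291 genes tested on both types of GeneChip, 157 (54.0%) had log2 fold changes of the same sign. Pearson's r across these genes was 0.239, and 0.127 without Reg3b. Genes are not independent replicates. Of the 6 genes called on the GlycoGeneChip 4 were tested on the Mouse 430 2.0, and Reg3b alone was called there. Of the 12 genes that the study names for this array 7 were tested here, and 1 was called, Reg3b, beside 1.25% of all genes. For Gfpt2, which makes glucosamine-6-phosphate, the GeneChips overlapped, with 225 and 1338 in Bl and 1691 and 198 in Bt.

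**Figure D5:**
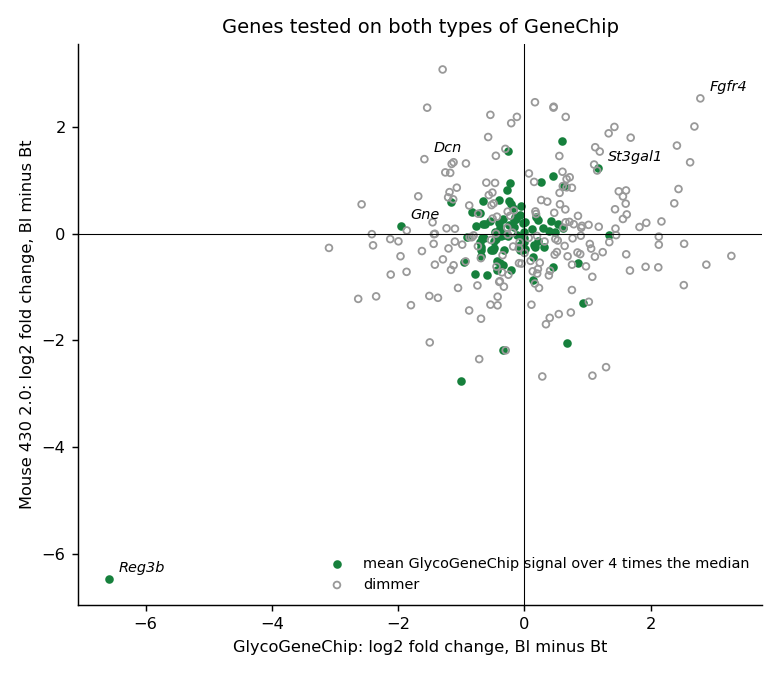
Log2 fold change, Bl minus Bt, on the GlycoGeneChip (x axis) and on the Mouse 430 2.0 (y axis) for the 291 genes tested on both, each by its brightest probe set. Filled points had a mean GlycoGeneChip signal over 4 times the median. Reg3b lies far from all others at -6.57 and -6.47, whereas Gne lies at -1.95 and 0.15.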

How the data were processed

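MAS5 signals of 8 GlycoGeneChips and 8 Mouse 430 2.0 GeneChips were used. They are intensities on a linear scale that the authors deposited after scaling each GeneChip to a trimmed mean near 1500, as the trimmed means of 1497 to 1503 on the GlycoGeneChips show. No detection calls were used here. Depth does not apply to arrays, and their number limits the precision. The labels give each GeneChip its group and number. Mouse probe sets were those with a mouse gene in RefSeq's annotation. Signals were raised to the 25th percentile of all signals of the table (268.1 on the GlycoGeneChip and 144.7 on the Mouse 430 2.0), taken to log2, and kept where both GeneChips of a state exceeded the table's median (860.3 and 583.1). The comparison, Bl minus Bt, was estimated by lmFit and eBayes with an intensity trend (limma 3.58.1, R 4.3.3) on the 8 GeneChips of a type with 4 residual degrees of freedom, and p-values were adjusted by Benjamini-Hochberg over all tested probe sets of the species. The fit was tested on simulated data.

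A gene was represented by its brightest probe set in the lists. Genes were named where they passed the threshold, where they had the 10 largest rises or falls without overlap, where the study names them for this GeneChip, or where they led a list or were its brightest member. The members and lists were chosen with earlier results of these data known. Reg3g, Areg, Muc4 and Ada, also named by the study, were not analysed here. The alternatives tried were 3 scalings, 2 floors, 3 filters, 2 models of the spread, a fit on the 4 GeneChips compared and the removal of each GeneChip in turn. Fits without the GF GeneChips and on bright probe sets alone were added after the data were seen.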

Additional observations from a re-analysis of the deposited data

Results flagged for a closer look

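Probe sets for human genes on the GlycoGeneChip are outside the comparison of mouse genes, and they gave calls as well. In the same fit 7 of 457 passed the threshold (1.53%), 5 higher (1.09%) and 2 lower (0.438%) in Bl. HPSE2 had signals of 2295 and 2488 in Bl, against 282 and 258 in Bt (log2 3.12, adjusted p = 0.0102 by limma). IGF2R had 142 and 130 in Bl, both under the floor, against 1548 and 1535 in Bt (log2 -2.52, adjusted p = 0.0055). By the same filter all 7 entered the test through 1 state alone, the 5 higher through Bl and the 2 lower through Bt. They were thus selected for high signals in 1 of the states compared. INHBB, HS3ST1, CHODL and WNT10A were the other ones higher in Bl, and SGSH was the other one lower. The RNA was of mouse, and whether these probes bind mouse transcripts was not tested.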

How the results depend on the processing

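Of 7 probe sets past the threshold, 3 were left with the floor at the median, with no filter or with the filter at the 75th percentile, and 2 without the intensity trend, with only the 4 GeneChips compared or without the GF GeneChips. Among the 65 probe sets above 4 times the median on all 8 GeneChips 0 passed (limma), and Reg3b is not among these. Leaving out 1 GeneChip gave 3 to 18 calls, with 3 without Bt 9177, Bt 9568 or Bt/Bl 9179, 4 without Bt/Bl 9180 and 18 without Bl 9182. Both Reg3b probe sets passed wherever they were tested. The 90% bound gave 25 probe sets with the filter at the 75th percentile and 4 among the bright ones, beside 53 in the report, and 43 to 62 without 1 GeneChip. Fewer probe sets were tested under these filters, and otherwise the cause was not tested. The fits without the GF GeneChips and on bright probe sets were chosen after seeing the data. No paired analysis was possible because each GeneChip has its own number in the labels and the states share none.

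Quantile normalization reversed the log2 fold changes of Ifngr1 (0.31), Lgals4 (0.14), Muc3 (0.21), Ugdh (0.30) and the dimmer probe set of St6galnac6 (-0.002). Median and 75th percentile scaling reversed those of Nans (-0.008 and -0.017) and of the brighter probe set of St6galnac6 (-0.009 and -0.018). Leaving out 1 GeneChip also reversed some, with ranges of -3.21 to 0.036 for the brighter probe set of Dcn, -0.13 to 0.72 for the brighter one of Gcnt3, -1.50 to 1.16 for Gfpt2, -0.17 to 0.33 for the dimmer one of Ifngr1, -0.81 to 1.10 for the dimmer one of Lgals4 and -0.048 to 2.82 for the other one of Lum. The ranges were -0.42 to 0.30 for Muc3, -0.14 to 0.16 for Nans, -2.44 to 0.34 for the dimmer probe set of Piga, -1.16 to 0.029 for Reg1, -0.71 to 0.072 for Smpd1, and -0.53 to 0.65 and -0.34 to 0.36 for the dimmer and brighter ones of St6galnac6. None of these passed the threshold in the report. Of 78 single probe sets 62 kept their sign in all alternatives. With quantile normalization the median of nucleotide sugar synthesis was 0.03. Among the bright probe sets that of sialyltransferases was 0.01, which was the value of St6galnac6. Leaving out 1 GeneChip changed the sign of 15 of the 25 list medians.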
